A study of Mus musculus with 22 samples.

Results

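The E13.5 tracheal epithelium was compared with the pooled tracheal mesenchyme, as 2 epithelium libraries against 4 mesenchyme libraries, out of 22 libraries in the table of the whole series. The cells came from dissociated E13.5 mouse tracheas carrying a gamma SMA eGFP reporter, in which GFP is driven by the smooth muscle gamma actin (Actg2) gene, and they were separated by FACS after staining with an APC-coupled antibody to Epcam. Epcam-positive, GFP-negative cells were the epithelium. GFP-positive cells were the muscle and cells negative for both were the chondroblasts, and these populations, with 2 libraries each, together formed the mesenchyme. The columns were taken by the sort gate and the date written in their headers, so that each population had 1 library of an earlier date and 1 of a later date, and values below are given in that order. The header of the earlier epithelium library lacks the extra dash that marks GFP-negative cells in the later one. It was read as Epcam positive and GFP negative. The labels list 3 controls for each population, of which control 1 and control 2 were Bmp4 f/f with gamma SMA eGFP and control 3 was Notum 300/300 with gamma SMA eGFP; the headers carry no control number, so the genotype of a given library is not known. The Bmp4 f/f animals are listed with no Cre. Per the methods of the study, the 5 tracheas of an E13.5 sample came from 1 litter and were pooled, and the samples were independent. Chondroblasts of Notum 150/150 mutants with the same reporter (3 libraries) and whole E11.5 tracheas of Wnt5a f/f controls (5 libraries, each from 5 pooled tracheas) were used only as further levels.

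The tracheal epithelium is the endoderm-derived tube that lines the airway. Its cells are joined by tight junctions, desmosomes and E-cadherin contacts, rest on a basement membrane and have an apical face towards the lumen. At this stage it exchanges signals with the mesenchyme around it: Wnt ligands and Sonic hedgehog pass outwards, and growth factors such as Fgf10 pass inwards, while the mesenchyme forms the trachealis muscle and the cartilage rings.

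Total counts ran from 13513229 to 21678177 per library, so that 3 counts corresponded to 0.138 to 0.222 CPM, the usual unit of counts scaled to a common library total. Levels are CPM after scaling by edgeR's TMM method, without division by gene length, so they were compared between libraries and not between genes. Of 26202 gene symbols, 13687 reached 1 CPM in both libraries of at least 1 population and were tested. Among listed genes nearest to that limit, Fgf18 (1.09 CPM) and Tfap2a (1.17 CPM) were kept and Itgb4 and Spred2 (each 0.876 CPM) were not. A gene that passed only through the population in which it was high had to differ, so the counts of members below describe the lists and were not used to support them. With bulk sorted cells, a change in the make-up of a sort and a change per cell cannot be told apart.

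All 4 epithelial markers were high in the library pair labelled epithelium. Krt8, an intermediate filament protein of simple epithelia, stood at 975 and 1152 CPM in the epithelium, at 19.2 and 10.3 CPM in muscle and at 6.17 and 10.6 CPM in chondroblasts (log2 fold change of epithelium over mesenchyme 6.53 ± 0.46 SE; adjusted p = 0.00654, edgeR quasi-likelihood test with Benjamini-Hochberg adjustment over all genes tested, as for every adjusted p below). Cdh1, which encodes E-cadherin, stood at 606 and 523 CPM against 0.151 to 8.46 CPM (7.40 ± 1.27; adjusted p = 0.0393). Nkx2-1, the transcription factor that defines the respiratory endoderm, stood at 61.1 and 146 CPM against 0.853 to 10.2 CPM (5.20 ± 0.56; adjusted p = 0.0113). Epcam stood at 528 and 893 CPM in the epithelium, 2.01 and 4.47 CPM in muscle and 0.652 and 0.223 CPM in chondroblasts (8.59 ± 0.93; adjusted p = 0.0113). Epcam protein was the gate, so its RNA is a check of the sort and not a finding. In each of these genes both epithelium libraries were above all 4 mesenchyme libraries, as in 17.3% of all genes tested. The smooth muscle genes marked the other gate: Acta2, smooth muscle alpha actin, was at 7028 and 5115 CPM in muscle and at 4.94 and 6.92 CPM in the epithelium.

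**Figure D1:**
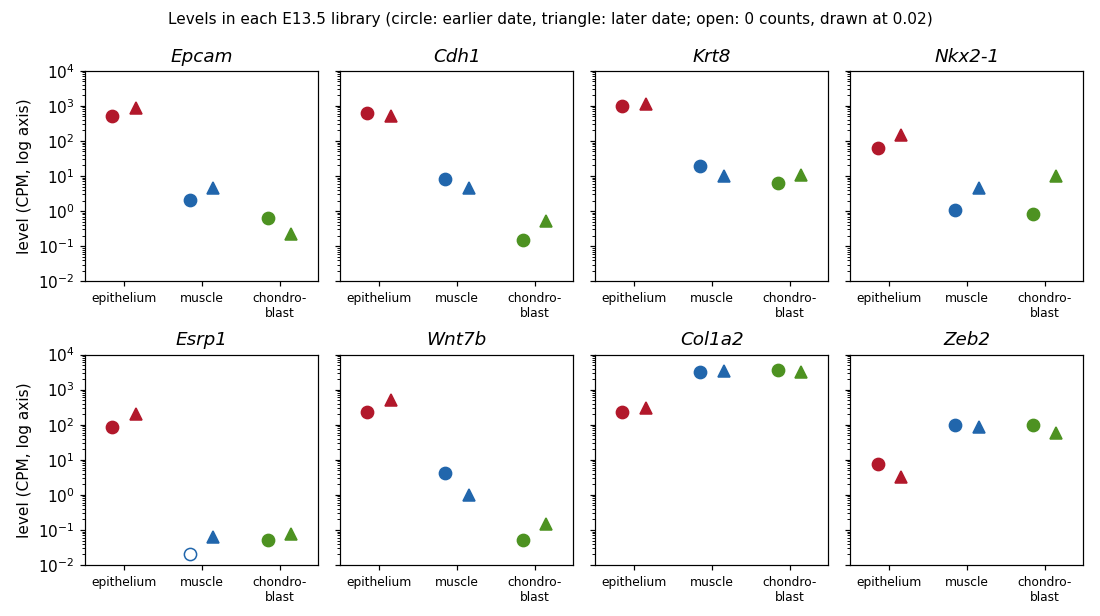
Level of 8 genes in each of the 6 E13.5 libraries, in CPM on a log axis, by population; each point is 1 library, circles are the earlier date and triangles the later date, and the open circle is a library with 0 counts drawn at 0.02. Epcam, Cdh1, Krt8, Nkx2-1, Esrp1 and Wnt7b were higher in both epithelium libraries than in any mesenchyme library, and Col1a2 and Zeb2 were lower.

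Over all genes tested, 197 were higher in the epithelium (1.44%) and 253 were lower (1.85%) at an adjusted p below 0.05, together 3.29%. The fit had 3 residual degrees of freedom and a biological coefficient of variation of 71.7%. Both epithelium libraries lay above all 4 mesenchyme libraries in 17.3% of all genes tested and below them in 17.2%, whether called or not, and the median log2 fold change over all genes was -0.09. DESeq2 on the same libraries called 802 higher and 1437 lower. Leaving out 1 library moved these counts: without the later epithelium library 0 genes were higher and 10 lower by edgeR (520 higher and 923 lower at an unadjusted p below 0.05), without the earlier one 65 were higher and 383 lower, without the later muscle library 35 and 42, and without the later chondroblast library 34 and 51.

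**Figure D2:**
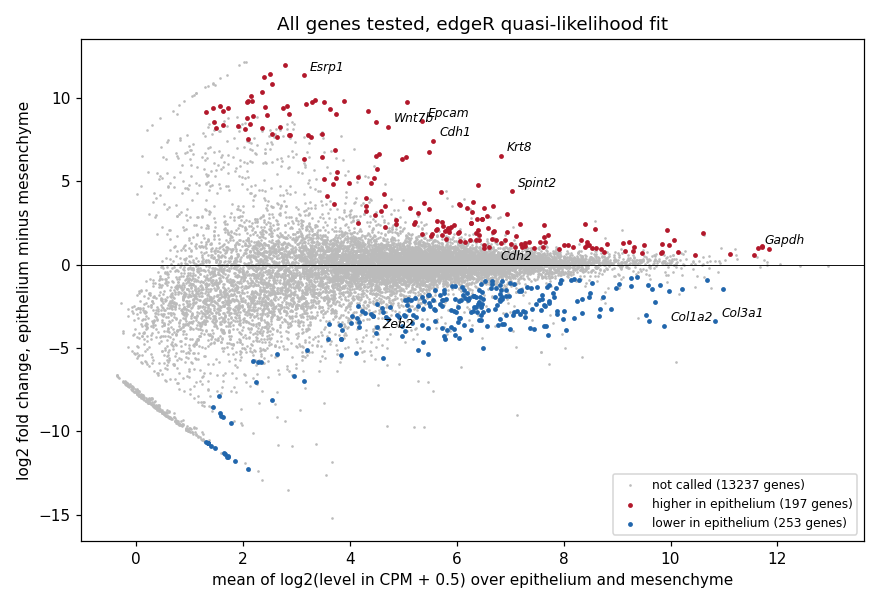
Log2 fold change of epithelium over mesenchyme (y axis) against the mean log2 level of both groups (x axis, CPM plus 0.5) for the 13687 genes tested; each point is a gene, red points are the 197 called higher, blue points the 253 called lower and grey points the rest. Called genes run from low to high mean levels, and the fold changes of genes with 0 counts in a group, which form the slanting lines at the left, depend on the fit's prior count and are not read as sizes.

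Of 40 junction and polarity genes, 37 were tested, 12 were higher in the epithelium and 0 were lower, beside 1.44% of all genes tested that were higher; their median log2 fold change was 4.20. In 33 of the 37 the epithelium lay above every mesenchyme library, beside 17.3% of all genes tested. In the tight junction 7 of 15 genes were called higher. In the adherens junction, besides Cdh1, which was called and is counted with the markers, 0 of 4 tested were called. In 3 of these 4 the epithelium lay above every mesenchyme library, beside 17.3% of all genes tested. Cgn encodes cingulin, which ties tight junctions to the actin cytoskeleton, and stood at 75.2 and 95 CPM in the epithelium and 1.18, 0.882, 0.954 and 0.818 CPM in the mesenchyme (6.46 ± 0.42; adjusted p = 0.00654). The claudins form the paracellular seal. Cldn6 stood at 657 and 774 CPM against 0.189 to 2.90 CPM (9.74 ± 0.82; adjusted p = 0.00816), Cldn7 at 306 and 383 CPM against 0 to 1.83 CPM (adjusted p = 0.0113) and Cldn3 at 255 and 346 CPM against 0 to 2.72 CPM (adjusted p = 0.0171). Cldn4 had 52.4 and 76.9 CPM in the epithelium and 2 counts over the 4 mesenchyme libraries, a ratio of 2167 with a 95% counting interval of 599 to 17902. Ocln, which encodes occludin, stood at 134 and 148 CPM against 0 to 0.552 CPM (9.74 ± 0.93; adjusted p = 0.00919). Cldn8 had 37.6 and 27.0 CPM in the epithelium and 0 counts in all 4 mesenchyme libraries but missed the threshold (adjusted p = 0.0551).

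Genes of apical polarity and of sorting to the cell surface followed. Ap1m2 encodes the epithelial subunit of the AP-1 clathrin adaptor and stood at 169 and 129 CPM against 0 to 0.703 CPM (9.83 ± 1.04; adjusted p = 0.0113). Ezr encodes ezrin, the linker of microvilli to actin, and stood at 268 and 307 CPM against 15.2 to 28.5 CPM (3.78 ± 0.29; adjusted p = 0.00816). Patj, a scaffold of the Crumbs complex, stood at 121 and 135 CPM against 26.8 to 45.0 CPM (adjusted p = 0.0228), and Llgl2, a basolateral polarity protein, at 74.3 and 66.5 CPM against 1.89 to 11.2 CPM (adjusted p = 0.0455). Of 9 desmosome genes tested only periplakin (Ppl) was called, at 36.5 and 28.3 CPM against 0 to 0.126 CPM (8.43 ± 1.03; adjusted p = 0.0154). Desmoplakin (Dsp) stood at 65.8 and 51.9 CPM against 0 to 3.43 CPM, with the highest mesenchyme value in the earlier muscle library, and missed the threshold (adjusted p = 0.0590). Crb3 and Rab25, which act in apical identity and recycling, stood at 34.6 and 56.3 CPM and at 32.4 and 24.5 CPM against at most 0.651 CPM and 0 CPM (adjusted p = 0.0569 and 0.0609). Cdh2, which encodes N-cadherin, overlapped between the groups, at 111 and 96 CPM in the epithelium and 84.3 to 141 CPM in the mesenchyme (adjusted p = 0.997). Llgl2 and the claudin Cldn23 were not called when the epithelium was set against the mean of separately fitted muscle and chondroblast groups.

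The start regions of Epcam, Ap1m2, Cldn6 and Cgn are shown because they hold letters read by factors that are measured below. They were picked and are not a sample of the called genes. CAGGTG is the E-box read by the Snai and Zeb repressors of epithelial genes. The sequences are the bases before the RefSeq start site on GRCm38.p6, written along the gene's strand, with matches to CAGGTG or its complement CACCTG in capitals; in Cgn the capitals mark AACNGGTT, the letters read by grainyhead-like factors.
Epcam, chr17:87635729-87635978, + strand: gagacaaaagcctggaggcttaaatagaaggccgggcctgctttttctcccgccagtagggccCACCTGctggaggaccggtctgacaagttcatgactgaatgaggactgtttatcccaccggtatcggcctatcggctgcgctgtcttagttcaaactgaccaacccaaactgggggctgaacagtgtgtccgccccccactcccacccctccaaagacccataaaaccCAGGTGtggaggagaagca
Ap1m2, chr9:21312334-21312583, - strand: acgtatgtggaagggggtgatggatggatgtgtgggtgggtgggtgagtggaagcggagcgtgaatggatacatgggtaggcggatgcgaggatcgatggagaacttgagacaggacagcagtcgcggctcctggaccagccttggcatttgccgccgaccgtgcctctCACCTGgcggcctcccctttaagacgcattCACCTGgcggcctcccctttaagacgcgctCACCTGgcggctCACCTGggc
Cldn6, chr17:23679115-23679364, + strand: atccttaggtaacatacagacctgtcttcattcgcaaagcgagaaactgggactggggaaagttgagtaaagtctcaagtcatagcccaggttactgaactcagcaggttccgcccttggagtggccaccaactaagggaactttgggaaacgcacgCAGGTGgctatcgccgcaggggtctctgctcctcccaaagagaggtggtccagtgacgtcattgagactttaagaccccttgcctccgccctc
Cgn, chr3:94786483-94786582, - strand: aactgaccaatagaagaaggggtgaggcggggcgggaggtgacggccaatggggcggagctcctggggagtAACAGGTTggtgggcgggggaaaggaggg
Epcam held 2 E-box matches, which began 187 and 19 bases before the start site. Ap1m2 held 4, at 81, 51, 21 and 9 bases, and Cldn6 held 1, at 93 bases. The Cgn match to AACNGGTT began 29 bases before the start.

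In windows of 300 bases, 250 before and 50 after the start, 61 of 181 promoters of genes called higher (33.7%, from 149 of the 197 genes) held CAGGTG on either strand. The same letters were in 28 of 244 promoters of genes called lower (from 181 of the 253 genes), in 17.9% of the 13799 promoters of genes tested and in 20.2% of all 32851 promoters. AACNGGTT, on either strand, was in 3 of the 181 (1.66%), 2 of the 244 (0.820%), 1.81% of promoters of genes tested and 2.09% of all promoters. A match of letters is not a bound site, and base composition was not matched between these sets. Whether the Snai and Zeb repressors act on any of these genes was not tested.

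The repressors that read the E-box were on the mesenchymal side. Zeb2 stood at 7.60 and 3.13 CPM in the epithelium and at 101, 85.4, 95.5 and 57.6 CPM in the mesenchyme (-4.07 ± 0.39; adjusted p = 0.00919). Snai1 stood at 1.45 and 3.26 CPM against 19.9, 58.8, 55.4 and 65.4 CPM (-4.46 ± 0.63; adjusted p = 0.0233). Zeb1 stood at 2.18 and 5.87 CPM against 25.6 to 88.2 CPM and missed the threshold (-3.80 ± 0.73; adjusted p = 0.0529). In each of these 3 genes both epithelium libraries lay below all mesenchyme libraries, as in 17.2% of all genes tested.

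Among keratins, 3 of 11 genes besides Krt8 were tested and all 3 were higher, beside 1.44% of all genes tested. Krt18, the partner of Krt8 in the filament, stood at 475 and 389.9 CPM against 9.64 to 22.8 CPM (4.74 ± 0.42; adjusted p = 0.00865). Krt7 stood at 331 and 453 CPM against 0.595 to 7.22 CPM (6.72 ± 0.75; adjusted p = 0.0121), and Krt19 at 147 and 145 CPM against 0.252 to 7.38 CPM (adjusted p = 0.0475). These are keratins of simple epithelium. Krt5, of basal cells, had 0.581 and 0 CPM in the epithelium and was not tested.

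Of 28 epithelial transcription factors 23 were tested, 5 were higher and 1 was lower, beside 1.44% and 1.85% of all genes tested, with a median log2 fold change of 4.85. Foxa2, a pioneer factor of the endoderm, stood at 195 and 171 CPM against 0 to 1.72 CPM (9.01 ± 1.21; adjusted p = 0.0201). Its relative Foxa1 stood at 79.9 and 77.2 CPM but had 3.91 CPM in the earlier muscle library and 0 to 0.0743 CPM in the other 3, and was not called (adjusted p = 0.104). Grhl1 and Grhl2, the grainyhead-like regulators of junction genes, stood at 49.1 and 41.0 CPM and at 81.8 and 113 CPM against at most 3.31 and 2.78 CPM (adjusted p = 0.0397 and 0.0429). Id2, an inhibitor of helix-loop-helix factors, was present in both compartments and higher in the epithelium, at 952 and 892 CPM against 369 to 515 CPM (1.08 ± 0.15; adjusted p = 0.0239). Foxp2 ran the other way. It is known as a factor of the distal lung epithelium and stood here at 89.4 and 78.4 CPM in the epithelium and at 267, 235, 245 and 268 CPM in the mesenchyme (-1.60 ± 0.17; adjusted p = 0.0112). Sox2, which specifies the proximal airway, stood at 31.2 and 47.5 CPM against 0 to 1.54 CPM without passing the test (adjusted p = 0.0617), and Klf5, a regulator of surface epithelia, had an adjusted p = 0.0515.

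The gene with the smallest p of those higher was Esrp1, a splicing regulator restricted to epithelia. It stood at 86.1 and 199 CPM in the epithelium and had 3 counts over the 4 mesenchyme libraries (adjusted p = 0.00377; ratio 3083, 95% counting interval 1054 to 14953). Its paralogue Esrp2 stood at 95 and 55.2 CPM against 0 to 1.95 CPM (7.74 ± 1.11; adjusted p = 0.0248). A known target of both proteins is Fgfr2, the receptor of Fgf10, whose alternative exons give an epithelial and a mesenchymal receptor. The summed Fgfr2 level did not separate the groups, at 228 and 326 CPM in the epithelium, 108 and 198 CPM in muscle and 110.5 and 335 CPM in chondroblasts (0.69 ± 0.27; adjusted p = 0.244). Fgfr2 has 3 entries in the table. The third entry held 66.1% and 58.2% of Fgfr2 counts in the epithelium, 15.4% and 2.19% in muscle and 5.34% and 4.97% in chondroblasts. The entries carry no transcript name, so which exon each one holds was not established. Of the other Esrp targets looked at, the main entry of Enah held 88.1% and 96.6% in the epithelium and 81.0% to 89.0% in the mesenchyme, and the groups overlapped. The main mesenchymal entry of Cd44 held 5.90% and 8.62% against 99.5% to 100%, while its main epithelial entry was not the same in both epithelium libraries, and the eighth of 9 entries of Ctnnd1 held 35.8% and 21.4% against 3.21% to 7.00%. These genes were picked as known targets and Fgfr2 was chosen among them after the values were seen. Of 3824 genes with several entries and at least 10 CPM in each of the 6 libraries, 28 (0.732%), Fgfr2 among them, had an entry whose share differed by 50 percentage points or more between the group means with no overlap. The shares are the authors' estimates of how reads divide between entries, and no test was run on them.

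**Figure D3:**
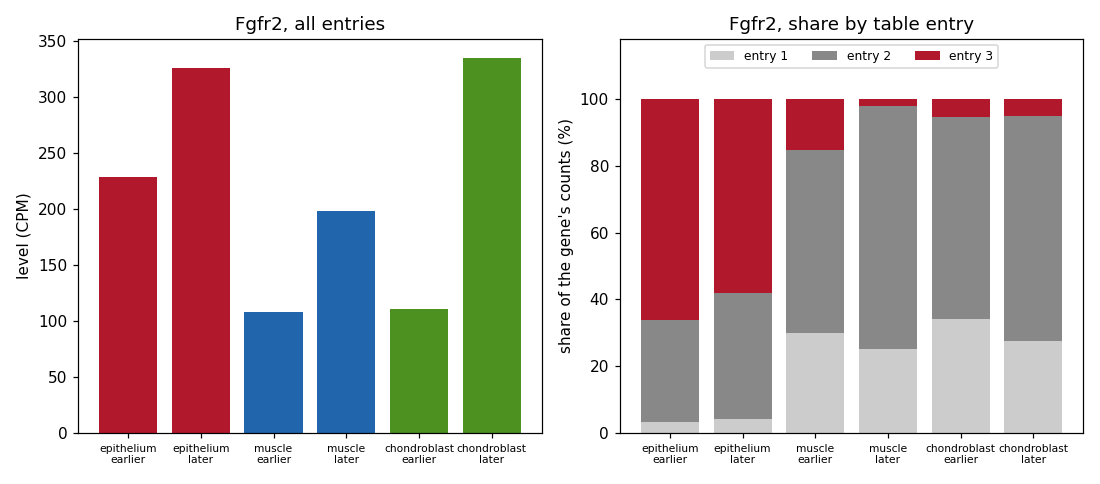
Fgfr2 in the 6 E13.5 libraries: bars at the left give the summed level in CPM, and stacked bars at the right give the percentage of Fgfr2 counts assigned to each of its 3 table entries. The third entry, in red, took 66.1% and 58.2% in the epithelium and 2.19% to 15.4% in the mesenchyme, while the summed level overlapped.

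Of 36 genes of later airway cell types 18 reached the level needed for the test and 4 were higher in the epithelium, beside 1.44% of all genes tested, with a median log2 fold change of 0.17. Of the 18, 9 had a log2 fold change above 0 and 9 below 0, among them all 3 basal genes tested. Ccno, a regulator of centriole multiplication in ciliated cells, stood at 44.9 and 80.7 CPM and had 1 count over the mesenchyme (adjusted p = 0.00865; ratio 4147, 95% counting interval 744 to 163890). Cftr, the airway chloride channel, stood at 87.2 and 68.9 CPM against 0 to 0.652 CPM (9.01 ± 1.31; adjusted p = 0.0253). Scgb3a2, a secretoglobin of early secretory cells, stood at 40.5 and 22.2 CPM against 0 to 0.201 CPM (adjusted p = 0.0284), and Muc1, a membrane mucin, at 37.3 and 42.4 CPM against 0 to 1.07 CPM (adjusted p = 0.0403). Cftr was also the one gene called among 11 tested genes of ion and water transport.

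The epithelium libraries differed from each other in genes that mark positions along the endoderm. The earlier library held 72.7 CPM of Trp63, the master factor of basal cells, and the later one 0.588 CPM. Krt15, another basal gene, stood at 22.3 and 0 CPM. Thyroid and foregut factors went the same way: Hhex stood at 174 and 11 CPM, Pax8 at 79.0 and 2.09 CPM and Pax9 at 10 and 0 CPM. Sftpc, the surfactant gene of the distal lung, stood at 0 CPM in the earlier library and 26.3 CPM in the later one. Each mesenchyme library held at most 0.414 CPM of Pax8 and 1.64 CPM of Sftpc. Hhex passed the test against the mesenchyme (7.64 ± 1.35; adjusted p = 0.0423), Pax8 did not (adjusted p = 0.132), and thyroglobulin (Tg) stood at 13 and 15.2 CPM (adjusted p = 0.270). The later epithelium library also had fewer genes at 1 CPM or more, 11357 against 13548 in the earlier one. The mesenchyme libraries had 13134 to 13721. With 1 library per date, the genotype, the dissection, the date and this lower number of genes cannot be told apart.

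Of 27 genes for signals sent by the epithelium 18 were tested, 2 were higher and 1 was lower, beside 1.44% and 1.85% of all genes tested. Of the 18, 11 had a log2 fold change above 0 and 7 below 0, with a median of 0.78. Both epithelium libraries lay above every mesenchyme library in 8 and below in 6, beside 17.3% and 17.2% of all genes tested. Wnt7b, a ligand of the Wnt/beta-catenin pathway, stood at 224 and 509.7 CPM in the epithelium, 4.32 and 1.01 CPM in muscle and 0.0502 and 0.149 CPM in chondroblasts (8.25 ± 1.36; adjusted p = 0.0356). Wls, the carrier that Wnt ligands need for secretion, was present in all 6 libraries and stood at 491 and 547 CPM against 269, 237, 239 and 185 CPM (1.16 ± 0.18; adjusted p = 0.0316). Shh had 8.23 and 21.9 CPM in the epithelium and 3 counts over the mesenchyme, a ratio of 323 with a 95% counting interval of 110 to 1571, but missed the threshold with the date in the fit (adjusted p = 0.0609) and passed without it (adjusted p = 0.0276). Tgfb2 was lower, at 55.8 and 73.5 CPM against 128 to 215 CPM (-1.39 ± 0.18; adjusted p = 0.0177).

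On the receiving side 4 of 19 tested genes were higher, beside 1.44% of all genes tested. They include a set that acts on hepatocyte growth factor at the cell surface: the membrane protease matriptase (St14), at 204 and 236 CPM against 0.0592 to 7.81 CPM (6.33 ± 0.99; adjusted p = 0.0320), and its inhibitors Spint1, at 90.5 and 157 CPM against 0 to 0.452 CPM (9.60 ± 0.93; adjusted p = 0.00919), and Spint2, at 441 and 729 CPM against 15.1, 28.6, 23.6 and 47.9 CPM (4.38 ± 0.28; adjusted p = 0.00654). The receptor Met itself stood at 36.5 and 69.6 CPM against 4.62 to 12.3 CPM (adjusted p = 0.0684). Erbb3, a neuregulin receptor, stood at 138 and 89.9 CPM against 19.8 to 36.6 CPM (2.05 ± 0.32; adjusted p = 0.0327).

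Signals made by the mesenchyme were lower in the epithelium in 8 of 33 tested genes and higher in 0, with a median log2 fold change of -2.49, beside 1.85% of all genes tested that were lower. Tgfb3 stood at 24.0 and 43.6 CPM in the epithelium and at 442, 333, 398 and 369 CPM in the mesenchyme (-3.53 ± 0.33; adjusted p = 0.00865). Cxcl12, a chemokine, stood at 88.2 and 58.0 CPM against 320.0 to 721 CPM (-2.73 ± 0.23; adjusted p = 0.00816) and Igf1 at 77.0 and 90.5 CPM against 522 to 899 CPM (-2.98 ± 0.27; adjusted p = 0.00865). The BMP family members Gdf10 and Gdf5 stood at 10.2 and 12.7 CPM and at 21.1 and 18.5 CPM against at least 75.3 and 67.1 CPM (adjusted p = 0.0150 and 0.0352). Igf2 (-1.23), the heparin-binding factor Ptn (-2.26) and the Wnt inhibitor Sfrp1 (-3.44) were the others called. Wnt5a, the non-canonical Wnt ligand, stood at 42.4 and 17.6 CPM against 83.3, 181, 233 and 235 CPM, without overlap, and missed the threshold (-2.65 ± 0.61; adjusted p = 0.0814). Notum, which inactivates Wnt ligands, stood at 0.824 and 0 CPM against 22.7, 99.2, 13.6 and 85.6 CPM (adjusted p = 0.106), and in the mesenchyme its later libraries were above its earlier ones. Fgf10 had 1.99 and 0 CPM against 2.33 to 13.3 CPM (adjusted p = 0.294).

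A further list was drawn up for mesenchyme that receives hedgehog and PDGF signals, and it also holds genes with other roles. Of its 18 genes 5 were lower in the epithelium and 0 were higher, beside 1.85% of all genes tested that were lower. Their median log2 fold change was -3.02. The PDGF receptor Pdgfra missed the threshold, at a log2 fold change of -2.81 and an adjusted p of 0.0634. Gli1, a usual readout of the hedgehog pathway, stood at 0.969 and 0.0653 CPM against 21.2 to 36.0 CPM (-5.89 ± 1.20; adjusted p = 0.0609). Ptch1, a hedgehog receptor, stood at 31.2 and 39.9 CPM against 62.9 to 107 CPM (adjusted p = 0.104). The co-receptor Boc (51.7 and 22 CPM against 165 to 509 CPM), the transcription factor Osr1 (26.5 and 61.0 CPM against 213 to 469 CPM), the endothelin receptor Ednra (24.8 and 43.3 CPM against 154 to 259.6 CPM) and Pdgfrb (14.8 and 1.11 CPM against 131 to 398 CPM) were lower, with adjusted p from 0.0136 to 0.0427. Hhip, a hedgehog-binding inhibitor, was uneven within the mesenchyme, at 454 and 369 CPM in muscle and 55.0 and 44.9 CPM in chondroblasts, and the epithelium, at 15.5 and 44.8 CPM, was lower than muscle (-3.86; adjusted p = 0.0339) and not called against chondroblasts (-0.81; adjusted p = 0.503).

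Mesenchymal transcription factors were lower in 8 of 32 and higher in 0, beside 1.85% of all genes tested that were lower, with a median log2 fold change of -3.33. Besides Zeb2 and Snai1 these were Tcf21, at 8.62 and 7.11 CPM against 56.2 to 166 CPM (-4.00 ± 0.56; adjusted p = 0.0228), Tbx5, at 4.21 and 0.326 CPM against 61.4 to 92.5 CPM (-5.42 ± 0.88; adjusted p = 0.0339), Prrx1, Hic1, Nfatc4 and Sox9. Tbx5 acts in the respiratory mesenchyme, and Sox9 drives chondrogenesis. Sox9 stood at 52.8 and 39.6 CPM in the epithelium against 206, 456, 216 and 687 CPM (-2.82 ± 0.50; adjusted p = 0.0418), and without a scaling factor beyond the library total it missed the threshold. Foxf1, a hedgehog target of the splanchnic mesenchyme, stood at 0.388 and 3.33 CPM against 86.0, 168, 12.1 and 68.2 CPM and was called against each population (adjusted p = 0.0150 and 0.0377) but not against the pool (adjusted p = 0.0573). Under limma voom Tcf21, Snai1, Tbx5, Prrx1 and Hic1 also missed the threshold, as did Pdgfrb, Boc and Sfrp1.

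**Figure D4:**
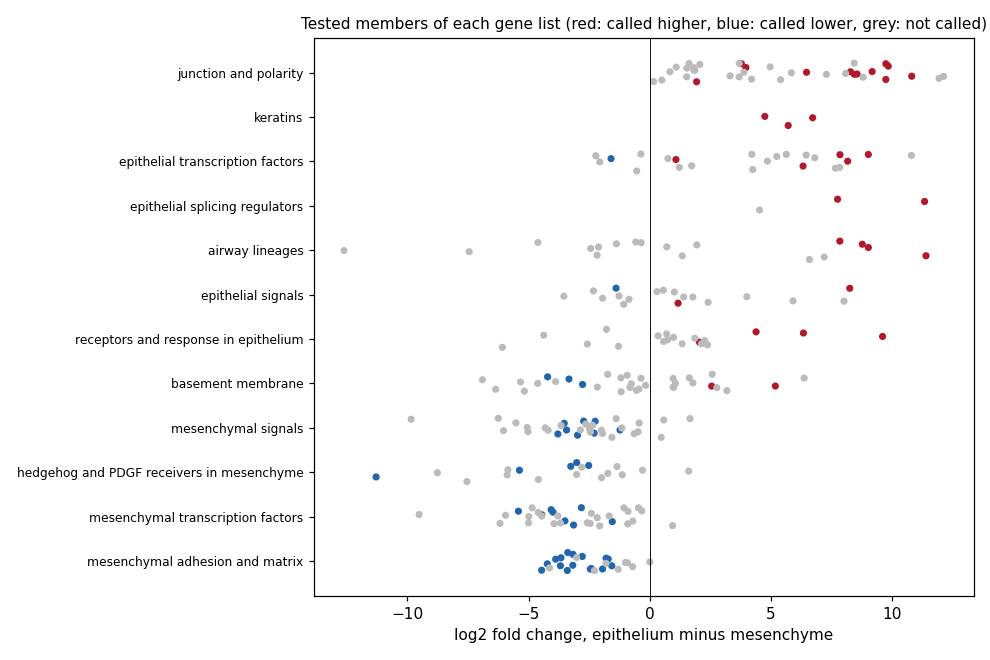
Log2 fold change of epithelium over mesenchyme for the tested members of 12 gene lists; each point is a gene, red points were called higher, blue points lower and grey points neither, and the vertical scatter within a row has no meaning. All 12 called junction and polarity genes are to the right of 0, and all 16 called genes of mesenchymal adhesion and matrix are to the left.

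Of 25 tested genes of mesenchymal adhesion and matrix 16 were lower in the epithelium and 0 were higher, beside 1.85% of all genes tested that were lower, with a median log2 fold change of -2.45. Col1a2, a chain of type I collagen, shared the smallest adjusted p of the comparison with Esrp1. It stood at 229 and 301 CPM in the epithelium and at 3198, 3294, 3711 and 3181 CPM in the mesenchyme (-3.67 ± 0.17, adjusted p = 0.00377). Col1a1 stood at 137 and 358 CPM against 1960.5 to 2729.7 CPM (-3.39 ± 0.27; adjusted p = 0.00816) and Col3a1 at 413 and 721 CPM against 5254 to 7327 CPM (-3.41 ± 0.30; adjusted p = 0.00865). Col1a1, Col1a2 and Col3a1, with Tgfb3, were the 4 genes named here that passed under every alternative of the analysis. The collagen VI chain Col6a1 stood at 35.4 and 61.4 CPM against 634 to 1177 CPM (-4.23 ± 0.42; adjusted p = 0.00976). Cdh11, the mesenchymal cadherin, stood at 63.8 and 40.1 CPM against 414 to 487 CPM (-3.17 ± 0.25; adjusted p = 0.00816), and Vim, the intermediate filament vimentin, at 75.3 and 97 CPM against 396 to 577 CPM (-2.45 ± 0.25; adjusted p = 0.0110). Myh11, smooth muscle myosin heavy chain, stood at 0.727 and 1.37 CPM in the epithelium, at 1923 and 1587 CPM in muscle and at 1.91 and 1.49 CPM in chondroblasts.

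In a list of 25 genes that fold and process collagen, written after the values were seen, 9 were lower in the epithelium and 0 higher, beside 1.85% of all genes tested that were lower. In 21 the epithelium lay below every mesenchyme library (17.2% of all genes tested), with a median log2 fold change of -1.71. Pcolce, the enhancer of procollagen cleavage, stood at 7.60 and 9.27 CPM against 94.8 to 137 CPM (-3.69 ± 0.31; adjusted p = 0.00816). Plod1, a lysyl hydroxylase, stood at 47.0 and 28.0 CPM against 199 to 276 CPM (-2.71 ± 0.24; adjusted p = 0.00865). Serpinh1, the collagen chaperone, stood at 227 and 407 CPM against 611 to 963 CPM (-1.39 ± 0.16; adjusted p = 0.0142). Sec23a, a coat protein of the vesicles that carry procollagen, fell by 1.88 on the log2 scale (adjusted p = 0.00865).

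Of 32 basement membrane genes tested, 2 were higher in the epithelium and 3 were lower, beside 1.44% and 1.85% of all genes tested. Npnt, the integrin ligand nephronectin, was among the higher genes and stood at 86.8 and 85.8 CPM against 10.7 to 21.1 CPM (2.55 ± 0.33; adjusted p = 0.0175). The nidogens, which link laminin to collagen IV, were on the mesenchymal side: Nid1 stood at 17.9 and 10.6 CPM against 131 to 442 CPM (-4.22 ± 0.42; adjusted p = 0.0102) and Nid2 at 17.1 and 36.9 CPM against 227 to 332 CPM (-3.34 ± 0.39; adjusted p = 0.0141). Lama4, a laminin chain of mesenchymal and vascular membranes, stood at 19.9 and 41.1 CPM against 177 to 232 CPM (-2.78 ± 0.36; adjusted p = 0.0180).

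Of 20 glycolytic genes, in a list written after the values were seen, 9 were higher in the epithelium and 0 lower, beside 1.44% of all genes tested that were higher. In 15 the epithelium lay above every mesenchyme library (17.3% of all genes tested), with a median log2 fold change of 0.90. Gapdh stood at 4430.1 and 4529 CPM in the epithelium and 2279.9, 2230.5, 2423 and 2144 CPM in the mesenchyme (0.98 ± 0.09; adjusted p = 0.00865). Pgk1 stood at 1030.5 and 892 CPM against 313 to 429 CPM (1.37 ± 0.13; adjusted p = 0.00919). The other genes called were Gpi1 (0.96), Pfkl (1.26), Aldoa (0.73), Pgam1 (0.71), Eno1 (1.05), Pkm (1.14) and Ldha (1.09), given as log2 fold changes in the order of the pathway. Ldha, which makes lactate, stood at 5538 and 4233 CPM against 1972 to 2676 CPM. Tpi1, which acts between Aldoa and Gapdh, stood at 1668 and 1612 CPM against 769 to 1069 CPM and missed the threshold (adjusted p = 0.0524). The lactate exporter Slc16a3 stood at 148 and 154 CPM against 31.3 to 73.5 CPM without passing the test (adjusted p = 0.0850). Pfkm, the muscle form of phosphofructokinase, stood at 45.2 and 45.5 CPM against 86.4 to 97.6 CPM (-0.99 ± 0.21; adjusted p = 0.0664). Several of these genes have near-identical processed copies in the genome, and reads may have been divided between them. Eno1b, a copy of Eno1 that was also called (adjusted p = 0.0318), stood at 68.4, 36.0 and 33.6 CPM in the earlier libraries of epithelium, muscle and chondroblasts and at 989.8, 416 and 536 CPM in the later ones.

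**Figure D5:**
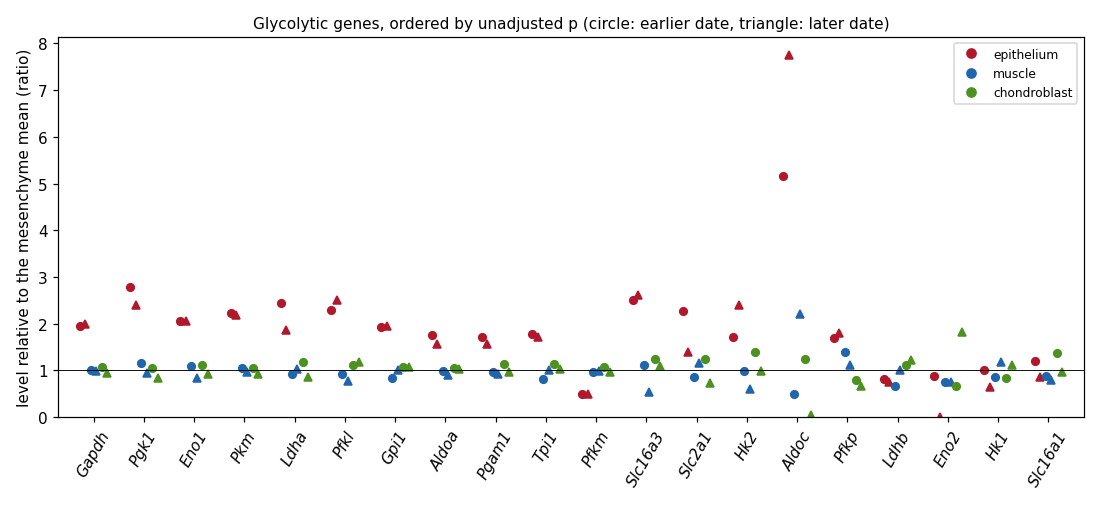
Level of 20 glycolytic genes in each of the 6 E13.5 libraries, as a ratio to the mean of the 4 mesenchyme libraries; each point is a library, circles are the earlier and triangles the later date, and genes are ordered by unadjusted p. The first 9 genes were called higher, with both epithelium points above all mesenchyme points, and Pfkm lies below 1 in both epithelium libraries.

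Outside the lists, the 12 genes per direction with the largest fitted change were looked at. On the higher side they were genes with almost no counts in the mesenchyme. Myo5c, an unconventional myosin of secretory epithelia, stood at 60.3 and 125 CPM and had 1 count over the mesenchyme (adjusted p = 0.00654; ratio 6062, 95% counting interval 1087 to 239500). Cckar, the cholecystokinin A receptor, was the most abundant of the 12, at 253 and 279.6 CPM against 0 to 0.903 CPM (9.78 ± 0.79; adjusted p = 0.00816). Grb7, an adaptor of ErbB receptors, stood at 168 and 193 CPM against 0 to 0.703 CPM (9.76 ± 0.90; adjusted p = 0.00865). Tmprss2, a membrane serine protease of airway epithelium, stood at 34.1 and 65.0 CPM against 0 to 0.149 CPM (adjusted p = 0.0150), and Kdf1, Cdh16, Ildr1, Gipc2, Tmem184a, Cblc, Ttc6 and Krtap17-1 completed the group. In the other direction Rasl12, Pappa, Megf10, Luzp2 and Kcne4 had 0 counts in both epithelium libraries. Rasl12 stood at 51.2, 24.5, 23.2 and 45.8 CPM in the mesenchyme, so it was at least 406-fold lower against a floor of 3 counts over the epithelium (adjusted p = 0.0150), and Pappa, a protease that frees insulin-like growth factors, at 15.4, 14.5, 39.4 and 33.3 CPM, so it was at least 299.8-fold lower (adjusted p = 0.0252). Heyl, a Notch target, stood at 1.07 and 0.131 CPM against 207, 37.2, 24.2 and 12.9 CPM (adjusted p = 0.0476), and the long non-coding RNA Fendrr, transcribed beside Foxf1, had 1 count in the epithelium against 5.13 to 47.5 CPM (adjusted p = 0.0488). Col23a1 (-6.70), Kcnab1 (-8.10), Crocc2 (-7.02), Zc3h12d (-5.86) and Cped1 (-5.82) were the others. Under limma voom none of these 12 lower genes passed.

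Set against each population alone, the epithelium had 122 genes higher (0.891%) and 276 lower (2.02%) than muscle and 107 higher (0.782%) and 191 lower (1.40%) than chondroblasts. Both comparisons share the epithelium libraries. There were 76 genes higher and 164 lower against both. Acta2 shows what the pool averages: the epithelium was lower than muscle (-10.00; adjusted p = 0.00251) and than chondroblasts (-2.21; adjusted p = 0.0236), but the pooled test did not call it (-8.99 ± 3.26; adjusted p = 0.213). In libraries that took no part in the fit, Krt8 stood at 3.59, 2.90 and 4.99 CPM in the Notum 150/150 chondroblasts and Epcam at 18.7 to 54.6 CPM, with a median of 43.4 CPM, in the 5 whole E11.5 control tracheas, which hold both compartments.

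Markers of other cells moved between libraries. Summed over 8 genes, blood and macrophage markers stood at 333 CPM in the earlier epithelium library, where all 8 were detected and Csf1r was at 92.3 CPM, and all 8 were at 0 in the later one; the mesenchyme held 1.01 to 293 CPM. Red cell markers stood at 16.2 and 577 CPM in the epithelium and reached 78217 CPM in the earlier chondroblast library, without which 132 genes were higher and 179 lower. Cartilage markers were not absent from the epithelium, at 422 and 505 CPM over 12 genes against 1272 to 4278 CPM, and 5 of 11 tested were lower, beside 1.85% of all genes tested, among them Matn4, at 8.82 and 4.11 CPM against 151 to 283 CPM (-5.12 ± 0.46; adjusted p = 0.00865). Muscle markers summed to 89.5 and 102 CPM over 10 genes in the epithelium, 153 and 124 CPM in chondroblasts and 14845 and 11589 CPM in muscle. Of 6 endothelial genes tested only Flt1 was called lower, at 1.5 and 0.196 CPM against 17.4 to 39.9 CPM (adjusted p = 0.0353), beside 1.85% of all genes tested. Flt1 missed the threshold under limma voom and against the mean of separately fitted muscle and chondroblast groups. The part of these markers in the comparisons above was not tested.

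Genes that respond to tissue dissociation had their highest sums in the epithelium. Summed over 12 genes they stood at 11622 and 15318 CPM in the epithelium and 3908 to 8963 CPM in the mesenchyme. Of the 12, 2 were called higher, beside 1.44% of all genes tested. In the Notum mutant chondroblasts, which were sorted as well, the sums were 4335, 3693 and 2203 CPM. Ier2, an immediate early gene, stood at 1748 and 2033 CPM against 722, 331, 622 and 324 CPM (2.05 ± 0.28; adjusted p = 0.0201), and Junb, a subunit of AP-1, at 487 and 554 CPM against 125 to 286 CPM (1.5 ± 0.27; adjusted p = 0.0450). In the E11.5 control tracheas, which were homogenized with the same enzyme and are not described as sorted, the same sum was 282 to 3522 CPM. The E13.5 tracheas were held in the dissociation enzyme before staining and sorting, for a time that the labels and the study's methods give differently, and its part in these differences was not tested.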

How the data were processed

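RNA of sorted or whole-trachea cells was made into SMART-Seq v4 and Nextera XT libraries. The deposited table holds the authors' estimated counts for 47248 entries in 22 columns, most genes having a symbol and 9286 symbols having several entries; 50.9% of the values used are not whole, and the submitters' notes name Partek and mm10, with the aligner and annotation not given in the sources used here. Entries were summed per symbol and rounded. Of the columns, 18 matched a labelled group by gate and date, and 4 that matched none were not used. Genes with 1 CPM or more in both libraries of a population were fitted with edgeR 4.0.16 (R 4.3.3; TMM, quasi-likelihood test, population and date), with date as the block of the main design; same-date deviations correlated by -0.0213 to 0.109 between populations, and date is what the header states and nothing more. DESeq2 1.42.0 and limma 3.58.1 voom were alternatives, as were other scalings, filters and models and leaving out each library. The epithelium was set against muscle and chondroblasts in a fit of 3 populations. The study's methods describe E13.5 samples as independent pools of tracheas from a litter; the headers do not say which columns share a pool, and the populations of 1 date may. Intervals and floors cover counting error only. The SE was calculated back from the edgeR test, as the size of the log2 fold change divided by the square root of its F statistic. Within a list the text names the members with the smallest p and those whose role it explains; outside the lists it names, in each direction, the 12 called genes of largest fitted change whose groups did not overlap and whose higher group averaged 20 CPM or more. The members, the 22 gene lists and the tests were chosen with earlier results of these data known, and the lists of glycolysis, collagen processing, imprinted and mitosis genes after the values were seen. Promoters and start sites are from RefSeq on GRCm38.p6. The scripts were tested on simulated data. Some members of the lists are counted but not reported by name here.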

Additional observations from a re-analysis of the deposited data

Results flagged for a closer look

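Here and in the next section, the named genes are a set of 154, most of them named above. It also holds Tnc, Col6a2, Sparc and Fkbp10, and it lacks some genes that are named, such as Trp63 and Csf1r. Those with at least 1 CPM in a mesenchyme library, called or not, were searched for a library that stood apart from the other 3. This was so in 8 of 127 genes and in 1 of 8 marker sums. The cutoff is passed by about 1 in 20 sets of 4 values from a single group, whereas these libraries were of muscle and of chondroblasts. Of the 8 genes, 4 were epithelial genes in the earlier muscle library: Dsp at 3.43 CPM, Foxa2 at 1.72 CPM, Foxa1 at 3.91 CPM and Grhl2 at 2.78 CPM, with the other 3 libraries at 0.402 CPM or less. The earlier chondroblast library held 1.91 CPM of Hhex. The later muscle library held the least Fgf10, at 2.33 CPM. The later chondroblast library held the most Hic1, at 95.7 CPM, and the earlier muscle library the most Heyl, at 207 CPM. The red cell markers summed to 78200 CPM in the earlier chondroblast library.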

How the results depend on the processing

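Of the 127 named genes that were called, 127 kept their direction under each of the 15 alternatives, 95 passed under each alternative that kept all libraries, and 4 (Col1a1, Col1a2, Col3a1 and Tgfb3) passed under all 15. The number of calls moved more. Against the 197 genes higher and 253 lower of the main analysis, DESeq2 gave 802 and 1437, no filter on low counts 694 and 1101, and a fit that included the 3 Notum mutant chondroblast libraries 770 and 1034. Without the filter the median log2 fold change over all genes was -0.43 against -0.09. With limma voom 473 were higher and 264 lower, so that the share of calls that were higher was 64.2% against 43.8% in the main analysis and 35.8% with DESeq2. Against muscle DESeq2 called 749 higher and 1165 lower, and against chondroblasts 647 and 1040. Leaving out 1 library gave 0 to 206 genes higher and 10 to 383 lower, with the fewest when the later epithelium library was left out and the lone epithelium library was assumed to vary like the others. Without the date as a replicate block 284 were higher and 375 lower against the pool, 160 and 330 against muscle and 140 and 235 against chondroblasts; of the called genes named, Grhl1, Hhex, Sfrp1, Junb, Heyl, Ccnb1 and Eno1b were then not called. Cdh2, at -0.0015 in the main analysis, took the other sign with scaling by library size only (0.048), with 3 populations (0.0015) and with the mutant libraries (0.0017), and ranged from -0.12 to 0.14 when 1 library was left out. The causes were not tested. At these depths a gene needed 0.138 to 0.222 CPM to reach 3 counts.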

Other observations

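In a list of 21 imprinted genes, written after the values were seen, 9 were lower in the epithelium and 0 higher, with a median log2 fold change of -1.45, beside 1.85% of all genes tested that were lower. H19 stood at 1189 and 1256 CPM in the epithelium and at 3825, 3623, 3279 and 2622 CPM in the mesenchyme (-1.45 ± 0.17; adjusted p = 0.0150, edgeR). Its neighbour on the chromosome, Igf2, stood at 551 and 613 CPM against 1089 to 1543 CPM (adjusted p = 0.0239), and the receptor that clears Igf2, Igf2r, at 48.3 and 37.9 CPM against 116 to 249 CPM (-1.92 ± 0.24; adjusted p = 0.0157). Dlk1, a Notch ligand relative, and Meg3, which lies beside it, fell by 3.01 and by 2.12 on the log2 scale (adjusted p = 0.00865 and 0.0113). Mest stood at 373 and 167 CPM against 1575 to 2844 CPM (-3.03 ± 0.37; adjusted p = 0.0156), and Peg3, Plagl1 and Ndn were the others called. Allele-specific reads were not analysed here.

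In a list of 20 mitosis genes, written after the values were seen, 5 were higher in the epithelium and 0 lower, beside 1.44% of all genes tested that were higher, all 20 had a log2 fold change above 0, with a median of 0.97, and in 18 the epithelium lay above every mesenchyme library (17.3% of all genes tested). Ube2c, which starts the destruction of cyclins, stood at 252 and 347 CPM against 95.6 to 133 CPM (1.36 ± 0.21; adjusted p = 0.0320, edgeR). Racgap1 (1.09), Cks2 (1.25), Cenpf (1.17) and Ccnb1 (0.92) were the others called. In whole E11.5 control tracheas Ccnb1 stood at 465 to 642 CPM, above the 277 and 381 CPM of the E13.5 epithelium.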
